A study of Homo sapiens with 6 samples.

Results

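The 10 genes described here are the inhibitors of the cyclin-dependent kinases (CDKs) and the D-type cyclins. They were chosen by gene symbol from the 58174 genes of the deposited expression tables: the 3 Cip/Kip inhibitors CDKN1A, CDKN1B and CDKN1C, the 4 INK4 inhibitors CDKN2A, CDKN2B, CDKN2C and CDKN2D, and the 3 cyclins CCND1, CCND2 and CCND3. All 10 symbols were present in the tables of all 6 samples. T24 is a long-used cell line from a human bladder carcinoma. UBC9 passes SUMO, a small ubiquitin-like protein, on to its target proteins. The comparison asks which transcripts differ in level between T24 cells that stably expressed a scrambled control shRNA (shRNA-NC, 3 samples) and T24 cells that stably expressed an shRNA against UBC9 (shRNA-UBC9, 3 samples). Both groups had been infected with lentivirus and selected with puromycin, and only 1 hairpin against UBC9 is described, so an effect of this hairpin cannot be told apart from the loss of UBC9. The sources do not say whether the 3 samples of a group came from separate cultures. The p-values weigh the group difference against a spread between samples that may be only technical, and could then overstate the evidence.

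The G1 phase ends when CDKs phosphorylate the retinoblastoma protein and release the E2F factors, which switch on the genes of DNA replication. D-type cyclins activate CDK4 and CDK6 in response to growth signals. INK4 proteins bind CDK4 and CDK6 and keep the D-type cyclins off, whereas Cip/Kip proteins bind whole cyclin-CDK complexes, above all those of CDK2. In bladder cancer, loss of CDKN2A and gain of CCND1 are frequent changes of this switch. T24 is known for the methylated promoter of its p16 transcript.

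The upstream sequences of 5 start sites are shown: those of CDKN1A and CDKN2D, the inhibitor genes that rose, and those of CDKN2A and CDKN2B, which lie side by side and both fell. CDKN2A is shown with both of its starts, which bear on what its value can mean. Each run is the 250 bases before a RefSeq start on GRCh38.p14, written 5′ to 3′ on the strand of the gene. Capitals mark the GC box GGGCGG, a site of SP-family factors, on either strand.
CDKN1A, chr6:36678464-36678713, plus strand: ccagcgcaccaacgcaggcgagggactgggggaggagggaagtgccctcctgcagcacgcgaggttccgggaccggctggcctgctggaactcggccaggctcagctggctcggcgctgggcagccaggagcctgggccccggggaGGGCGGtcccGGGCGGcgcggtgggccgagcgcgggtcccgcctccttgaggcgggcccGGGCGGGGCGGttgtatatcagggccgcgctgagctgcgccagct
CDKN2D, chr19:10568980-10569229, minus strand: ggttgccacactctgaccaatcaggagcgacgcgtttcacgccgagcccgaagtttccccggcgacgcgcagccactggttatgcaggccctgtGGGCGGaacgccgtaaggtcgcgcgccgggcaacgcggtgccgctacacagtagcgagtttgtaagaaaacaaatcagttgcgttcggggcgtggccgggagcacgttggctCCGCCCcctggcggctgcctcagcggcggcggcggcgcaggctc
CDKN2A, upstream start, chr9:21995325-21995574, minus strand: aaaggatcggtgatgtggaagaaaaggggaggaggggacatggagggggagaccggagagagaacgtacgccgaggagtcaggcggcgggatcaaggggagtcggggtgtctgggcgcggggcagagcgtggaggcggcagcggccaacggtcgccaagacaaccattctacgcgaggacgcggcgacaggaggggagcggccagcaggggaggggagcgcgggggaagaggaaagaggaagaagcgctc
CDKN2A, downstream start, chr9:21974858-21975107, minus strand: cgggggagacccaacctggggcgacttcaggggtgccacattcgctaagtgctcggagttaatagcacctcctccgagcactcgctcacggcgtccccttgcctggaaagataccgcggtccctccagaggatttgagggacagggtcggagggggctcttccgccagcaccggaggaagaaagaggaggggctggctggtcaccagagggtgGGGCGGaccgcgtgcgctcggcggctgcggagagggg
CDKN2B, chr9:22009306-22009555, minus strand: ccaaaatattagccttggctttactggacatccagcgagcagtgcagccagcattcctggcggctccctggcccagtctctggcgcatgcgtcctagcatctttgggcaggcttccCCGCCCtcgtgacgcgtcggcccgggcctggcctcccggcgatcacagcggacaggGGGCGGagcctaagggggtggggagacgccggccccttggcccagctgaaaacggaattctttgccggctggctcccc

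The upstream start of CDKN2A gives the transcript of ARF, a protein of another reading frame, and the downstream start gives the transcript of the CDK inhibitor p16. The deposited value is a sum over the gene, so it does not tell ARF from p16. The GC box occurred 4 times before CDKN1A, 2 times before CDKN2D, 2 times before CDKN2B, 1 time before the downstream start of CDKN2A and 0 times before the upstream start. Of all 35116 upstream windows of this length in the RefSeq table, 42.6% held at least 1 GC box. RefSeq windows were found for 7 of the 10 genes, with 12 start sites in all, and 9 of the 12 held a GC box. CCND1, CCND2 and CDKN1C had no entry. The same 12 windows held no AP-1 motif (TGACTCA), no CRE (TGACGTCA), no GAS motif (TTCNNNGAA), no TATAAA and neither of the E2F motifs TTTCGCGC and TTTGGCGC on either strand, which says only that these letters are not in these windows. The shares of all windows with these motifs were 4.2%, 1.65%, 6.57%, 10.7%, 0.439% and 0.55%. The E-box CACGTG was in 2 of the 12 windows and in 6.34% of all windows, and CCAAT was in 5 of the 12 and in 32.01% of all.

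Expression was deposited as RPKM, in which reads are scaled to gene length and to the mapped total, so levels of different genes can be compared per length. The values rise in whole-read steps, and from these steps the mapped totals of the samples were recovered as 28219032 to 36058872 reads or read pairs, which of the 2 is not stated. The labelled bladder cancer cells expressed KRT7, KRT8 and KRT18, but 7 of 13 epithelial and urothelial markers, namely CDH1, KRT5, KRT20, UPK1A, UPK1B, UPK2 and UPK3A, were below 0.5 RPKM in all 6 samples. The summed level of these 13 markers was 943 to 1116 RPKM in shRNA-NC and 430.2 to 568 RPKM in shRNA-UBC9. Of 4 leukocyte markers, PTPRC and CD3E were below 0.5 RPKM in all samples, while the summed level of the 4 was 2.06 to 4.05 RPKM in shRNA-NC and 19.6 to 49.3 RPKM in shRNA-UBC9. CD68, a lysosomal gene that many cell types can express, made up most of that sum. Of 3 endothelial markers, PECAM1 and VWF were below 0.5 RPKM in all samples, and CDH5 fell from 2.87 ± 0.29 to 0.619 ± 0.390 RPKM (SD, n = 3 per group). Of 4 fibroblast markers, COL1A2 and PDGFRA were below 0.5 RPKM in all samples, COL1A1 rose from 0.377 ± 0.137 to 0.818 ± 0.221 RPKM and PDGFRB fell from 0.764 ± 0.230 to 0.202 ± 0.014 RPKM (SD, n = 3 per group). The part of these marker levels in the results below was not tested.

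Of the 10 genes, 9 reached 0.5 RPKM in 3 or more samples and were tested. In shRNA-UBC9, 3 of them rose (CDKN1A, CDKN2D and CCND3), 4 fell (CDKN2A, CDKN2B, CDKN2C and CCND1) and 2 (CDKN1B and CDKN1C) did not pass the test. The log2 fold change (log2FC) is that of shRNA-UBC9 over shRNA-NC. Here rose and fell mean an adjusted p below 0.05 in limma on log2(RPKM + 0.1), adjusted over all 12428 tested genes. By that rule 18.8% of all tested genes rose and 18% fell, 36.8% in either direction, beside 7 of the 9 tested here. A differentially expressed gene (DEG) was asked, in addition, for a log2FC above 1 in size. CDKN1A was then the single up-regulated DEG of the 9 and CDKN2A the single down-regulated DEG, beside 5.2% and 2.7% of all tested genes, or 7.89% in either direction. The 3 shRNA-UBC9 values and the 3 shRNA-NC values did not overlap for 7 of the 9 tested genes, beside 51.1% of all tested genes. These were the same 7 genes that passed. With 3 samples per group a gene that passes will mostly be separated as well, so this adds no further support. In RNA from whole cultures, a change in every cell cannot be told apart from a change in the share of cells that express a gene.

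**Figure D1:**
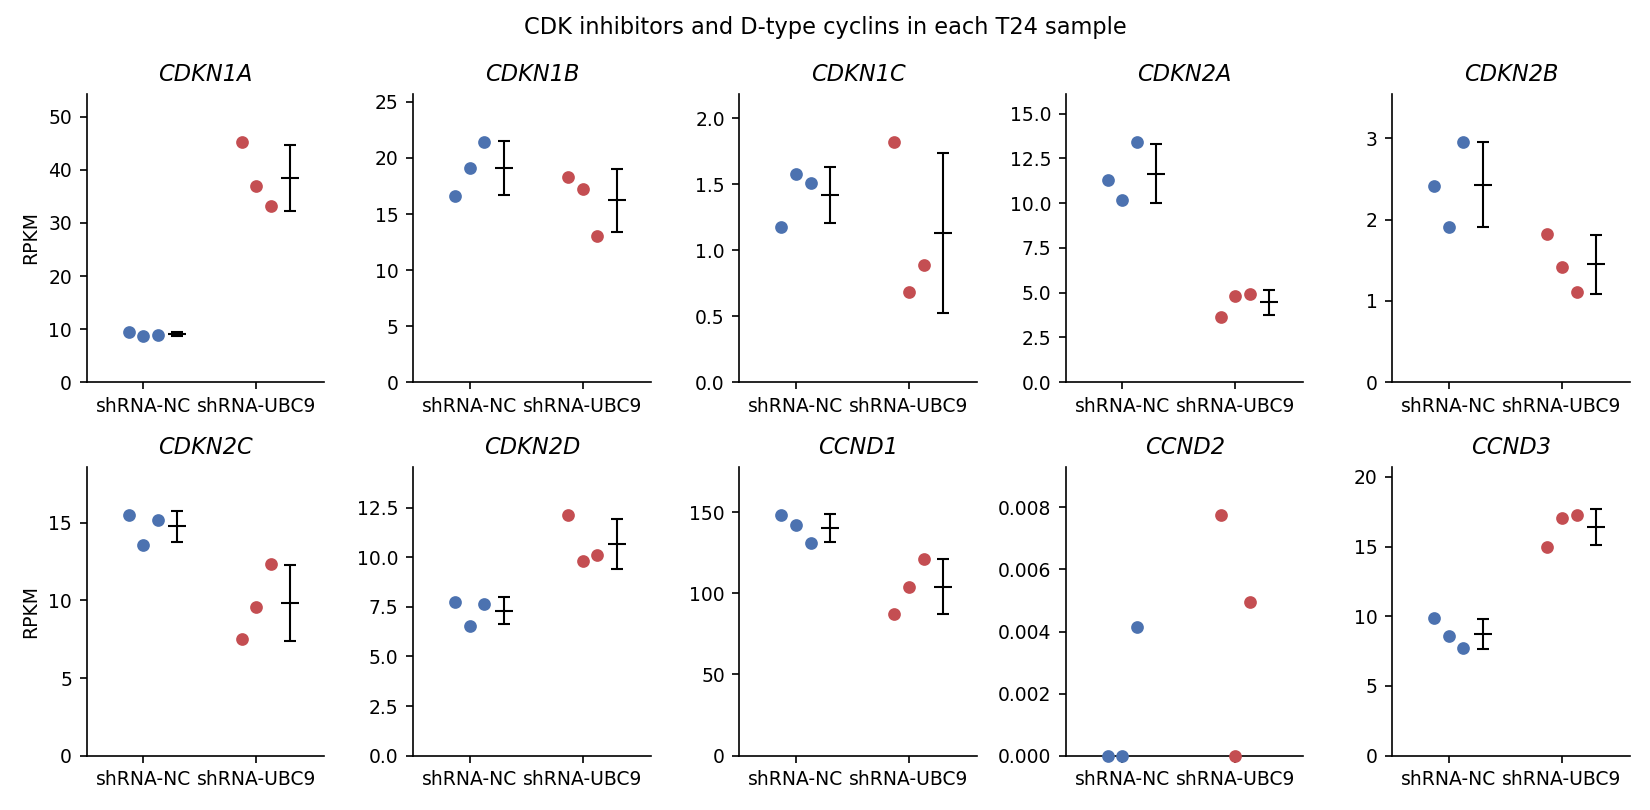
RPKM of the 10 genes (vertical axis of each panel, from 0) in the 3 shRNA-NC samples (blue) and the 3 shRNA-UBC9 samples (red), with replicates 1 to 3 from left to right and the mean ± SD in black. CDKN1A and CCND3 were higher and CDKN2A lower in every shRNA-UBC9 sample, and CCND2, shown without mean, stayed below 0.01 RPKM.

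The Cip/Kip genes moved unequally, and CDKN1A changed most of the 9 tested genes. CDKN1A encodes p21, which inhibits CDK2 complexes and is known for its part in cell cycle arrest after stress. It had 9.48, 8.72 and 8.91 RPKM in shRNA-NC replicates 1 to 3 and 45.3, 36.9 and 33.2 RPKM in shRNA-UBC9 replicates 1 to 3. The lowest shRNA-UBC9 sample was thus far above the highest shRNA-NC sample. The mean rose 4.26-fold, from 9.04 ± 0.40 to 38.5 ± 6.2 RPKM (SD, n = 3 per group), with a log2FC of 2.07 (SE 0.12, 95% interval 1.79 to 2.34, adjusted p = 2.18e-05, limma). These values rest on 863 to 921 reads per shRNA-NC sample and 2858 to 4986 reads per shRNA-UBC9 sample. With its rise CDKN1A moved from the 62.5th to the 92nd percentile of mean level among the tested genes.

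CDKN1B encodes p27, the inhibitor that holds CDK2 in check in resting cells and is controlled largely by protein breakdown. It had 16.6, 19.1 and 21.5 RPKM in shRNA-NC and 18.3, 17.3 and 13.04 RPKM in shRNA-UBC9, in the order of replicates 1 to 3. The groups overlapped. Its log2FC was -0.24 (SE 0.15, 95% interval -0.58 to 0.10, adjusted p = 0.236, limma), so a rise of the size seen for CDKN1A lay outside the interval. It was -0.15 without shRNA-NC replicate 3 and -0.09 without shRNA-UBC9 replicate 3. CDKN1C encodes p57, an imprinted inhibitor, and was low, at 1.18, 1.57 and 1.51 RPKM in shRNA-NC and 1.82, 0.68 and 0.891 RPKM in shRNA-UBC9. The shRNA-UBC9 samples lay on both sides of the shRNA-NC samples, with replicate 1 above and replicates 2 and 3 below all of them. Its log2FC of -0.40 had an SE of 0.31 and a 95% interval from -1.11 to 0.31 (adjusted p = 0.337, limma). Without shRNA-UBC9 replicate 1 it was -0.78 (adjusted p = 0.0181, limma), without shRNA-UBC9 replicate 2 it was -0.13 (adjusted p = 0.766), and with a pseudocount of 1 it was -0.22. Over all alternatives its adjusted p ranged from 0.0181 to 0.766. CDKN1C had 62 to 170 reads per sample.

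Among the INK4 genes, 3 fell and CDKN2D rose. CDKN2A had 11.3, 10.2 and 13.4 RPKM in shRNA-NC replicates 1 to 3 and 3.64, 4.8 and 4.93 RPKM in shRNA-UBC9 replicates 1 to 3. Every shRNA-UBC9 sample was below 5 RPKM and every shRNA-NC sample above 10 RPKM. The mean fell by 61.7%, from 11.6 ± 1.6 to 4.46 ± 0.71 RPKM (SD, n = 3 per group), a log2FC of -1.37 (SE 0.15, 95% interval -1.70 to -1.03, adjusted p = 0.000397, limma). Its reads numbered 1459 to 1968 per shRNA-NC sample and 568 to 732 per shRNA-UBC9 sample.

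CDKN2B encodes p15, which is known for its induction by TGF-beta, and lies next to CDKN2A on chromosome 9. It had 2.42, 1.91 and 2.96 RPKM in shRNA-NC and 1.83, 1.42 and 1.11 RPKM in shRNA-UBC9. All shRNA-UBC9 samples were lower, but the highest of them, replicate 1, lay close to the lowest shRNA-NC sample, replicate 2. Its log2FC was -0.71 (SE 0.21, 95% interval -1.19 to -0.23, adjusted p = 0.03, limma). This call was lost without shRNA-NC replicate 1 or 3 and without shRNA-UBC9 replicate 2 or 3, with adjusted p from 0.0707 to 0.11 and log2FC values from -0.71 to -0.54, and with no filter on low values (adjusted p = 0.0803). CDKN2C encodes p18. It had 15.5, 13.6 and 15.2 RPKM in shRNA-NC and 7.49, 9.55 and 12.4 RPKM in shRNA-UBC9. The shRNA-UBC9 samples were spread more widely, with a coefficient of variation of 25% against 6.93% in shRNA-NC. The log2FC was -0.61 (SE 0.17, 95% interval -0.997 to -0.23, adjusted p = 0.0223, limma). This call was lost without shRNA-NC replicate 1 or 3 or shRNA-UBC9 replicate 2, with adjusted p from 0.0565 to 0.0724 and log2FC values from -0.61 to -0.58, and with no filter (adjusted p = 0.0561).

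CDKN2D encodes p19, the INK4 inhibitor not to be confused with ARF. It had 7.76, 6.51 and 7.65 RPKM in shRNA-NC and 12.1, 9.80 and 10.1 RPKM in shRNA-UBC9. All shRNA-UBC9 samples were higher. The mean rose 1.46-fold, with a log2FC of 0.54 (SE 0.12, 95% interval 0.27 to 0.80, adjusted p = 0.0081, limma), from 339 to 657 reads per sample. It rested on the fewest reads of the 3 genes that rose, and its call held with any single sample left out.

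The D-type cyclins went in opposite directions. CCND1, cyclin D1, was the most abundant of the 10 genes in both groups. It had 148, 142 and 131 RPKM in shRNA-NC replicates 1 to 3 and 87.2, 104 and 121 RPKM in shRNA-UBC9 replicates 1 to 3. All shRNA-UBC9 samples were lower, and replicate 3 was nearest to the shRNA-NC samples. The mean fell by 25.8%, from 140.2 ± 8.9 to 104 ± 17 RPKM (SD, n = 3 per group), a log2FC of -0.44 (SE 0.12, 95% interval -0.73 to -0.15, adjusted p = 0.0255, limma). This call was lost without shRNA-NC replicate 1 or 2 or shRNA-UBC9 replicate 2, with adjusted p from 0.0641 to 0.0843 and log2FC values from -0.44 to -0.40, and with no filter (adjusted p = 0.0663). With 15187 to 23735 reads per sample, CCND1 had the largest read numbers of the 10 genes.

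CCND3, cyclin D3, had 9.85, 8.57 and 7.71 RPKM in shRNA-NC and 15.0, 17.0 and 17.3 RPKM in shRNA-UBC9. The groups were well apart. The mean rose 1.89-fold, from 8.71 ± 1.1 to 16.4 ± 1.3 RPKM (SD, n = 3 per group), with a log2FC of 0.91 (SE 0.11, 95% interval 0.65 to 1.17, adjusted p = 0.000718, limma). CCND3 has 3 start sites in the RefSeq table, and the gene value sums over them. CCND2, cyclin D2, was not tested. It had 0, 0 and 1 reads in shRNA-NC and 2, 0 and 1 reads in shRNA-UBC9, that is 4 reads over the 6 samples. A count of 0 allows up to 3 reads, which for this gene corresponds to 0.0116 to 0.0149 RPKM depending on the sample, and no fold change was formed. Such floors cover counting error only.

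**Figure D2:**
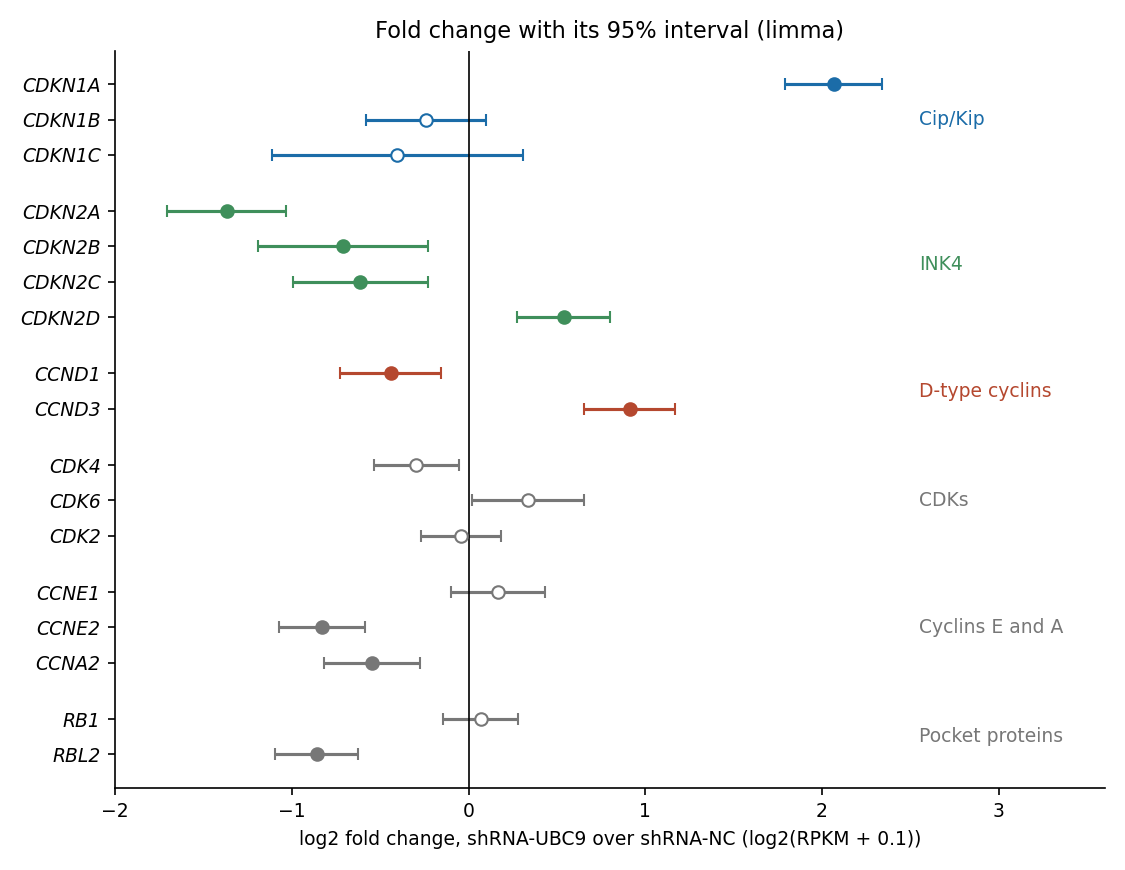
log2 fold change of shRNA-UBC9 over shRNA-NC on the log2(RPKM + 0.1) scale (horizontal axis) for the 9 tested genes and for kinases, cyclins and pocket proteins of the same pathway, each with its 95% interval from limma, unadjusted. Filled points had an adjusted p below 0.05, with CDKN1A at 2.07 and CDKN2A at -1.37 the farthest from 0.

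The order of the levels changed with these shifts. In shRNA-NC the order was CCND1, CDKN1B, CDKN2C, CDKN2A, CDKN1A, CCND3, CDKN2D, CDKN2B, CDKN1C and CCND2, from 140.2 to 0.00138 RPKM on average. Neighbours in this order that overlapped between samples were CDKN1A with CCND3 and CCND3 with CDKN2D. In shRNA-UBC9 the order was CCND1, CDKN1A, CCND3, CDKN1B, CDKN2D, CDKN2C, CDKN2A, CDKN2B, CDKN1C and CCND2. There CCND3 overlapped with CDKN1B, CDKN2D with CDKN2C, and CDKN2B with CDKN1C. CDKN1A thus moved from place 5 to place 2, and CDKN2A from place 4 to place 7.

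The summed RPKM of a family shows how its make-up changed, and is given without a test. The 3 Cip/Kip genes summed to 27.3, 29.4 and 31.9 RPKM in shRNA-NC and to 65.5, 54.9 and 47.1 RPKM in shRNA-UBC9. Within this sum the share of CDKN1A went from 30.8% ± 3.5 to 69.0% ± 1.6 and that of CDKN1B from 64.4% ± 3.2 to 29.0% ± 2.1 (SD, n = 3 per group). In shRNA-NC the leading Cip/Kip transcript was thus CDKN1B in every sample, and in shRNA-UBC9 it was CDKN1A in every sample. The 4 INK4 genes summed to 37.0, 32.2 and 39.2 RPKM in shRNA-NC and to 25.1, 25.6 and 28.5 RPKM in shRNA-UBC9. This sum counts all of CDKN2A, whose value does not tell ARF from p16. How much of the CDKN2A part is transcript of a CDK inhibitor is therefore not known, here and in the ratios formed with it. CDKN2D went from 20.2% ± 0.8 to 40.7% ± 6.8 of the INK4 sum and CDKN2A from 32.1% ± 1.9 to 16.9% ± 2.2 (SD, n = 3 per group). The ratio of the Cip/Kip sum to the INK4 sum was 0.738, 0.913 and 0.812 in shRNA-NC and 2.61, 2.15 and 1.65 in shRNA-UBC9.

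The D-type cyclins summed to 158, 150.5 and 138.3 RPKM in shRNA-NC and to 102, 121 and 138.6 RPKM in shRNA-UBC9, so these sums overlapped. CCND3 went from 5.83% ± 0.35 to 13.7% ± 1.1 of the sum (SD, n = 3 per group), and CCND1 remained the main D-type cyclin in every sample. For each RPKM of all 7 inhibitor genes together there were 2.46, 2.44 and 1.94 RPKM of D-type cyclins in shRNA-NC and 1.13, 1.5 and 1.83 in shRNA-UBC9. All of CDKN2A, and so any ARF transcript, is counted among the inhibitors in this ratio. The ratio of CCND1 to CDKN1A was 15.6, 16.3 and 14.7 in shRNA-NC and 1.92, 2.81 and 3.65 in shRNA-UBC9, so no sample of either group came near the other.

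**Figure D3:**
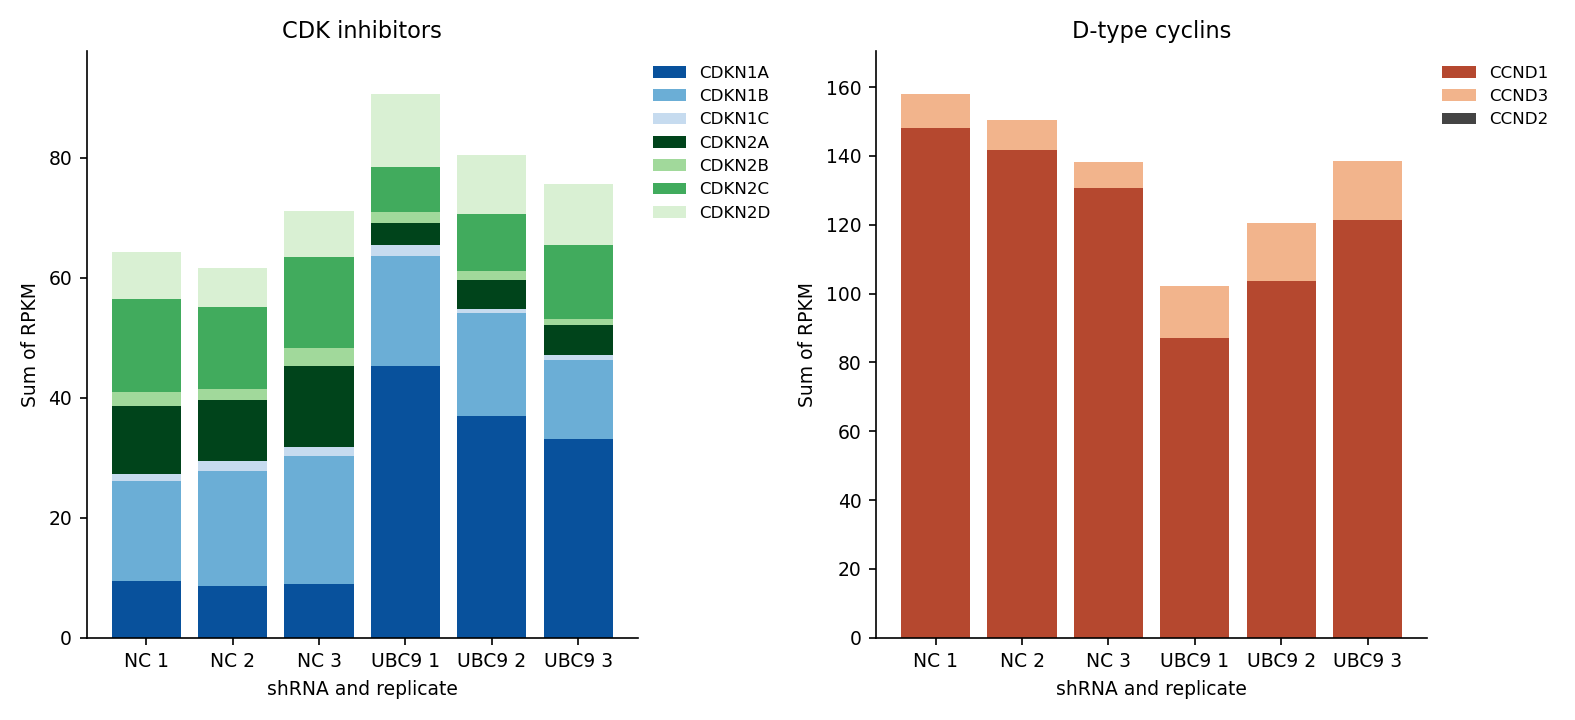
Stacked RPKM (vertical axis, from 0) of the 7 CDK inhibitors (left, Cip/Kip in blue and INK4 in green) and the 3 D-type cyclins (right) in each sample. The dark blue block of CDKN1A grew in all 3 shRNA-UBC9 samples, and the D-type cyclin total of shRNA-UBC9 replicate 3 reached that of shRNA-NC replicate 3.

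CDK4, CDK6 and CDK2, the main kinases that these proteins bind, did not pass the test, though CDK4 and CDK6 came near the threshold. CDK4 had 52.9 ± 2.2 RPKM in shRNA-NC and 43.3 ± 5.5 RPKM in shRNA-UBC9 (SD, n = 3 per group), a log2FC of -0.30 (adjusted p = 0.0557, limma). All shRNA-UBC9 samples were lower for CDK4, and it passed under TPM, median scaling and quantile normalization (log2FC from -0.34 to -0.32, adjusted p from 0.024 to 0.0396) and without shRNA-UBC9 replicate 3 (-0.39, adjusted p = 0.0226). CDK4 did not pass under the other alternatives, with adjusted p from 0.0522 to 0.14 (limma). CDK6 had 9.77 ± 1.32 and 12.4 ± 1.9 RPKM (SD, n = 3 per group), with a log2FC of 0.34 (adjusted p = 0.091), and its groups overlapped. It passed only without shRNA-NC replicate 2 (0.44, adjusted p = 0.049). Under the other alternatives its adjusted p ranged from 0.0538 to 0.254 (limma). CDK2, the partner of cyclins E and A, had a log2FC of -0.04 (adjusted p = 0.769). Of the 12 genes listed for G1 and S-phase kinases, cyclins E and A, CDC25A, CDC37 and the CDK-activating kinase, all were tested, 2 rose and 2 fell. Of all tested genes 18.8% rose and 18% fell. Cyclin E2 (CCNE2) fell from 6.07 ± 0.59 to 3.37 ± 0.23 RPKM and cyclin A2 (CCNA2) from 48.7 ± 5.1 to 33.4 ± 4.3 RPKM (SD, n = 3 per group). CDC37, a chaperone partner of CDK4, rose with a log2FC of 0.30 (adjusted p = 0.0138, limma), and CDK7 of the CDK-activating kinase with 0.29 (adjusted p = 0.0296). Both calls were lost with a replicate block, without shRNA-NC replicate 3 and without shRNA-UBC9 replicate 2. CCNE1 had a log2FC of 0.17 (adjusted p = 0.294). The median of this list was 0.15, beside 0.005 for all tested genes.

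Downstream of the kinases, 5 of the 13 tested pocket protein, E2F and DP genes fell and 1 rose, with a median log2FC of -0.41. Over all tested genes the shares were 18% that fell and 18.8% that rose. RB1, the gene of the retinoblastoma protein, had 18.9 ± 1.7 and 19.8 ± 0.8 RPKM (SD, n = 3 per group; adjusted p = 0.594, limma). RBL2, the pocket protein p130 of resting cells, fell from 12.8 ± 1.1 to 7.01 ± 0.59 RPKM (SD, n = 3 per group). E2F3, an activator, fell by 0.51 on the log2 scale, E2F4, a repressor partner of p130, fell by 0.48, and E2F6, a repressor, rose by 0.56. Of 26 E2F targets and proliferation genes, all tested, 20 fell and 0 rose in limma, and 0 rose at an unadjusted p below 0.05 or by voom on the recovered reads. Their median log2FC was -0.56. TOP2A, the topoisomerase of dividing cells, fell from 121 ± 18 to 57.5 ± 6.0 RPKM, and TYMS, thymidylate synthase, from 92.7 ± 9.2 to 46.4 ± 7.6 RPKM (SD, n = 3 per group). CHEK1, the replication checkpoint kinase, fell by 1.01, and CCNB2, a mitotic cyclin, fell by 0.84 on the log2 scale.

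Among 17 tested transcription factors known to act on CDK inhibitor genes, 3 rose and 3 fell, with a median log2FC of 0.17. This count and those of the lists below stand beside 18.8% of all tested genes that rose and 18% that fell. In either direction the share of all tested genes was 36.8%. EGR1, an immediate-early factor, had 1.10, 2.27 and 1.02 RPKM in shRNA-NC and 51.3, 17.8 and 15.9 RPKM in shRNA-UBC9, with replicate 1 far above the others. It rose from a mean of 1.46 ± 0.70 to 28.3 ± 19.9 RPKM (SD, n = 3 per group), a log2FC of 4.06 (SE 0.45, adjusted p = 0.000464, limma). ID1, an inhibitor of helix-loop-helix factors, rose by 0.83, whereas FOXO1, which is known to raise CDKN1B, fell by 1.02 and EZH2, a Polycomb methyltransferase known to act at the CDKN2A locus, fell by 0.63 on the log2 scale. Among 12 tested factors known to act on D-type cyclin genes, 4 rose and 1 fell, with a median of 0.05. The 4 were the AP-1 genes JUN and FOSL1 and the NF-kappaB genes NFKB1 and RELA, with log2FC values of 0.84, 0.94, 0.60 and 0.44. Of 15 tested genes of ubiquitin ligases that break down CDK inhibitors or D-type cyclins, 1 rose and 5 fell, with a median of -0.13. CKS1B, a cofactor in the breakdown of p27, fell from 50.7 ± 1.3 to 35.0 ± 3.5 RPKM (SD, n = 3 per group), CUL4A, a scaffold of a ligase for p21 and p27, fell by 0.62 and FBXO4, a ligase subunit linked to cyclin D1, fell by 0.73 on the log2 scale. FBXO31, another ligase subunit linked to cyclin D1, rose by 0.42. Of 15 tested other cyclins, 2 rose and 4 fell, with a median of -0.10. CCNG1, cyclin G1, fell from 65.0 ± 2.0 to 26.01 ± 1.17 RPKM (SD, n = 3 per group) and CCNF fell by 0.90 on the log2 scale, while CCNO and CCNC rose by 0.48 and 0.42.

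**Figure D4:**
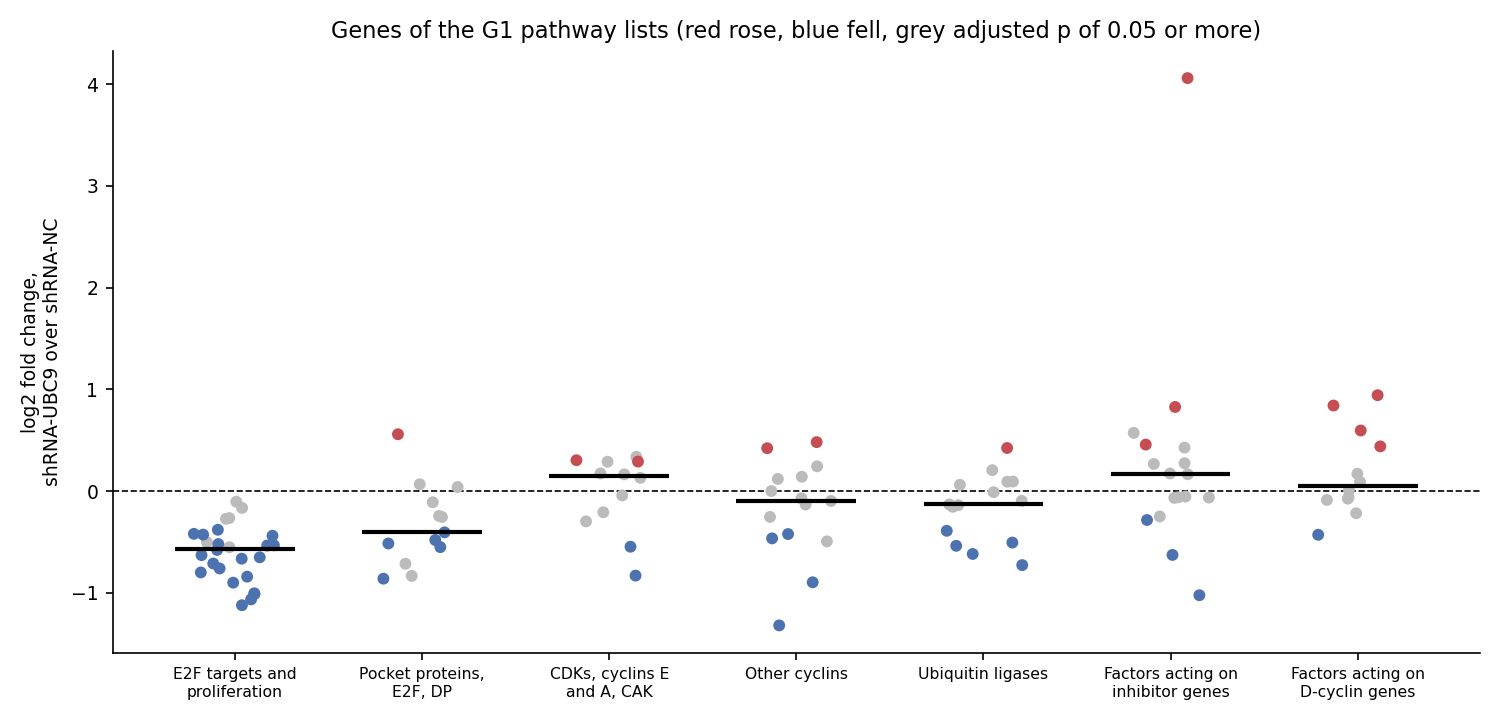
log2 fold change of shRNA-UBC9 over shRNA-NC (vertical axis) of each tested gene in 7 pathway lists, with the median of each list as a black bar and the median of all tested genes as a dashed line. Red points rose, blue points fell and grey points had an adjusted p of at least 0.05. In the list of E2F targets and proliferation genes 20 of 26 points are blue and none is red. Of all tested genes 18% fell and 18.8% rose.

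CDKN2A and CDKN2B are neighbours in the same orientation, at chr9:21967752-21995301 and chr9:22002903-22009305 on GRCh38 in GENCODE release 44, 7.6 kb apart. The nearest tested gene on the other side of CDKN2A, MTAP, had 3.75 ± 0.12 RPKM in shRNA-NC and 3.98 ± 0.09 RPKM in shRNA-UBC9 (SD, n = 3 per group), a log2FC of 0.09 (adjusted p = 0.465, limma). On the far side of CDKN2B the nearest tested gene was TUSC1, 3668 kb away, which fell by 0.54 on the log2 scale (adjusted p = 0.00388, limma). CDKN2B-AS1, an antisense transcript known as ANRIL that overlaps both inhibitor genes, was under the filter, at 0.236 ± 0.033 and 0.118 ± 0.015 RPKM (SD, n = 3 per group). The sources do not state whether strand was used in counting, so reads of CDKN2A or CDKN2B and of this antisense partner cannot be told apart where they overlap. The same limit holds for CDKN1A, CDKN1B, CDKN2C, CCND1, CCND2 and CCND3, which annotated genes on the opposite strand also overlap. CDKN1A lies at chr6:36676460-36687337. Its nearest tested neighbours both fell, SRSF3 by 0.30 and PPIL1, 167 kb away, by 2.15 on the log2 scale (adjusted p = 0.000123, limma). CCND1, at chr11:69641156-69654474, overlaps ORAOV1 on the opposite strand, which had 2.94 ± 0.23 and 2.72 ± 0.24 RPKM (SD, n = 3 per group; adjusted p = 0.461). Of its nearest tested neighbours, FADD, 549 kb away, fell by 0.28 on the log2 scale (adjusted p = 0.0308, limma) and MYEOV, 299 kb away, had a log2FC of -0.18 (adjusted p = 0.436). CCND3, at chr6:41934934-42050357, lies between BYSL, with a log2FC of 0.19 (adjusted p = 0.376), and TAF8, which fell by 0.38 on the log2 scale. CDKN2C, at chr1:50960745-50974634, lies 0.478 kb from FAF1, which had a log2FC of -0.23 (adjusted p = 0.0825, limma), with RNF11 on its other side at 0.18 (adjusted p = 0.149). CDKN2D, at chr19:10566460-10569059, lies 0.429 kb from KRI1, which had a log2FC of -0.19 (adjusted p = 0.206), with SLC44A2 on its other side at -0.23 (adjusted p = 0.114).

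The genes whose log2(RPKM + 0.1) followed CDKN1A most closely over the 6 samples were CYSTM1, CH17-472G23.4 and FGF2, each with a Pearson correlation of 0.999. FGF2, a growth factor, rose from 14.6 ± 0.3 to 72.5 ± 10.2 RPKM (SD, n = 3 per group). For CCND1 they were ELMO2, LMNB2 and TUBA1B, with 0.999 each after rounding, and for CDKN2A they were HNRNPA1 (0.9996), EPB41L2 (0.9993) and SEMA3D (0.9987). TUBA1B and HNRNPA1 have near-identical copies in the genome, so their values are uncertain. With 6 samples in 2 groups such values are easily reached: 865 of the tested genes had a correlation above 0.95 with CDKN1A, 362 with CCND1 and 685 with CDKN2A.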

How the data were processed

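RNA-seq libraries of T24 cells (poly(A) RNA, TruSeq kit, 3 shRNA-NC and 3 shRNA-UBC9 samples) were trimmed and mapped by the authors to GRCh38 (hg38) with the CLC Biomedical Genomics Workbench 4 at default parameters, and the authors deposited RPKM values for each gene and sample. The annotation release, the treatment of multi-mapped reads and of strand, and any filter are not given in the sources used here. RPKM does not correct for RNA composition.

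Groups came from the sample titles. Genes that reached 0.5 RPKM in 3 or more of the 6 samples were compared on log2(RPKM + 0.1) with limma 3.58.1 in R 4.3.3 (eBayes with an intensity trend), adjusted by the Benjamini-Hochberg method over all 12428 tested genes. With 3 samples against 3, an exact permutation test cannot go below p = 0.1 and was not used. Mapped totals were recovered from the values of 197 to 299 genes per sample that matched 1 read over the GENCODE 44 exon length, and reads per gene from the length at which all 6 values were whole within 0.001 read, which was found for 100% of the tested genes. Whether these are reads or read pairs is not stated. Named genes were all 10 members, 6 partner genes, up to 4 genes with the lowest adjusted p of each pathway list, the nearest tested neighbours of members that moved, and the 3 genes most like each of CDKN1A, CCND1 and CDKN2A. Some genes are not reported here. The members and lists were chosen with earlier results of these data known. Alternatives were other pseudocounts, filters and scalings, a fit without the trend, one with a replicate block, the omission of each sample and, added after seeing the data, limma's voom on the recovered reads. The fit and the recovery of reads were tested on simulated data. Python 3.11.15, numpy 2.4.6, pandas 2.3.3, scipy 1.17.1 and matplotlib 3.10.9 were used for the rest.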

Additional observations from a re-analysis of the deposited data

How the results depend on the processing

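Under 15 or 16 alternatives for each gene, CDKN1A, CDKN2A, CDKN2D and CCND3 kept their direction and an adjusted p below 0.05 (limma), and CDKN1A stayed between 1.94 and 2.17 on the log2 scale. No tested member changed sign. The number of members that rose was 3 in each, except 1 by the DEG cutoff. The number that fell was 4 in the main comparison, 1 by the DEG cutoff and 1 with no filter on low values, where more genes entered the adjustment, and 1 to 5 with each sample left out. It was 1 without shRNA-NC replicate 1 or shRNA-UBC9 replicate 2, 2 without shRNA-NC replicate 3, and 5, CDKN1C included, without shRNA-UBC9 replicate 1. With the replicate block it was 2, as CDKN2B and CCND1 lost their calls (adjusted p = 0.0571 and 0.0601, limma) at unchanged fold changes. Samples of the same number did not deviate together (correlations of -0.367, 0.0728 and -0.17 for replicates 1 to 3, and 1 of 6 samples closest to its own number). Between samples of different numbers the correlations ranged from -0.318 to 0.526. The labels do not pair the samples by number, and with 3 samples per group these correlations cannot settle whether they were processed in pairs. Across the groups, shRNA-NC replicate 1 and shRNA-UBC9 replicate 3 had the lowest mapped totals (29847726 and 28219032) and the fewest genes above 0 (18059 and 18254). Both had 0 reads of PTPRC and of CD3E, against 13 to 30 in every other sample. The labels name no batch, and a batch was not tested. With the replicate block, 0 G1 and S-phase kinase and cyclin genes rose, against 2 without it (2 at an unadjusted p below 0.05, limma, in that fit). With no filter, 3 pocket protein and E2F genes fell against 5, 1 factor acting on inhibitor genes rose against 3, and 0 factors acting on D-type cyclin genes fell against 1 (2 unadjusted). With each sample left out, the counts ranged from 0 to 3 for kinases and cyclins that rose (0 without shRNA-NC replicate 3 or shRNA-UBC9 replicate 2, 1 without replicate 1 of either group), from 2 to 6 for pocket protein and E2F genes that fell (2 without shRNA-NC replicate 2, 3 without shRNA-NC replicate 1 or 3 or shRNA-UBC9 replicate 2), from 1 to 3 for factors acting on inhibitor genes in either direction (1 in both without shRNA-NC replicate 3, and 1 that rose without shRNA-NC replicate 1), from 0 to 1 for factors acting on D-type cyclin genes that fell (0 without shRNA-NC replicate 1 or 3 or shRNA-UBC9 replicate 2 or 3), and from 2 to 5 for other cyclins that fell (2 without shRNA-UBC9 replicate 2). Of all tested genes 2237 fell, and 1401 without shRNA-NC replicate 3. Causes beyond the size of these fits were not tested. Voom on recovered reads gave 3 members that rose and 4 that fell. Read numbers were lowest for CCND2 (4 in all) and CDKN1C (62 to 170 per sample).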

Other observations

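Among the 3 shRNA-UBC9 samples, replicate 1 had the most CDKN1A (45.3 RPKM) and CDKN2D (12.1 RPKM), and the least CDKN2A (3.64 RPKM), CDKN2C (7.49 RPKM) and CCND1 (87.2 RPKM). Replicate 3 had the least CDKN1A (33.2 RPKM) and the most CDKN2C (12.4 RPKM) and CCND1 (121 RPKM). CDKN2D was lowest in replicate 2 (9.80 RPKM) rather than in replicate 3 (10.1 RPKM). CCND3, CDKN2B, CDKN1B and CDKN1C did not follow this order either. Replicate 1 had the least CCND3 (15.0 RPKM) and the most CDKN2B (1.83 RPKM), CDKN1B (18.3 RPKM) and CDKN1C (1.82 RPKM). The samples number 3, so no test was made.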
